A study of Mus musculus with 6 samples.

Results

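The genes described here encode integrins, laminins, other proteins of the basement membrane and matrix, ADAM proteases, tissue inhibitors of metalloproteinases (TIMPs) and the protocadherin Pcdh1. They are 36 genes out of 18194 measured, each represented by its brightest probe set (the highest mean over 6 arrays) among probe sets that the platform annotation gives to 1 gene. All 36 had such a probe set, and none was removed for a low signal. RNA came from CAD cells, a mouse neuroblastoma line with catecholaminergic features. One group of 3 arrays was from cells transfected with the RIPmiR-124a-2 plasmid, which expresses miR-124a-2, from which cells make miR-124, a microRNA abundant in neurons (miR-124a-2 plasmid). The other 3 were from cells that received the empty RI vector (empty vector). All cells were of this 1 line and were kept in DMEM with fetal bovine serum or Fetaclone III; the time after transfection and the share of cells that took up plasmid are not given in the sources used here. The replicates are biological replicates by the labels, which do not say how the cultures were separated, so p-values measure the spread between these arrays.

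Integrins are cell surface receptors made of an alpha and a beta chain, and they tie the matrix outside a cell to actin inside it. Laminins are trimers of an alpha, a beta and a gamma chain that polymerise into basement membranes, where nidogens, perlecan and collagen IV link to them. ADAM proteases cut the outer domains off membrane proteins, and TIMPs inhibit matrix metalloproteinases and some ADAMs. In the developing nervous system, laminins and integrins guide neural progenitors and growing axons, and ITGB1 and LAMC1 were reported as miR-124 targets in the chick neural tube.

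The comparison asks which transcripts differ when miR-124 is supplied to these cells. Of the 36 genes, 5 (Lamc1, Adam12, Pcdh1, Itgb1 and Adam17) were lower with the miR-124a-2 plasmid at an adjusted p under 0.05 (limma, Benjamini-Hochberg over all genes), by 1.71-fold to 2.73-fold. No member was higher by that test, and 31 did not pass. The 5 are 13.9% of the members, where 0.907% of all genes were called in either direction and 0.698% were called lower. The genes were listed with earlier results of these arrays known, so this share is a description of the list. The median log2 fold change was -0.004 over the 36 members and 0.015 over all genes, and 18 members lay below 0 and 18 above. Values did not overlap between the groups for 9 members (6 lower, 3 higher), against 16.3% of all genes in either direction and 7.76% lower.

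**Figure D1:**
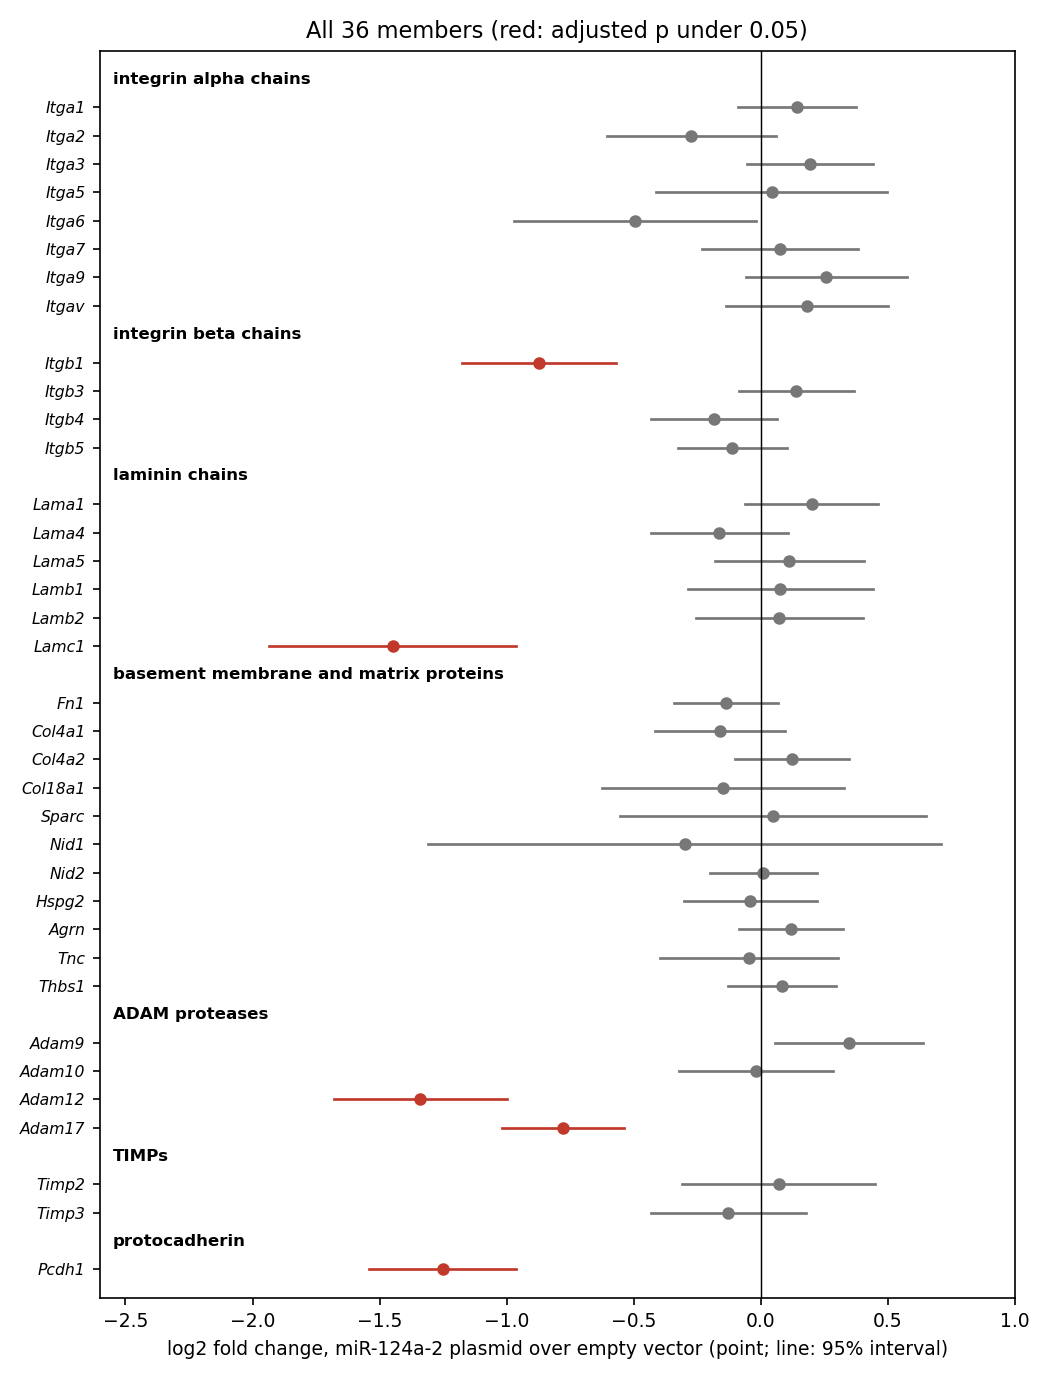
Log2 fold change of the 36 genes (horizontal axis, miR-124a-2 plasmid over empty vector, 3 arrays each), grouped by role; points are the estimates, lines their 95% intervals from limma, and red marks an adjusted p under 0.05. Lamc1, Adam12, Pcdh1, Itgb1 and Adam17 lie between -1.45 and -0.78, and the intervals of all other members but Itga6 and Adam9 cross 0.

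The arrays themselves were not all alike. Interquartile ranges of log2 signal were 3.06 to 3.10 in miR-124a-2 plasmid replicates 1 and 2 and empty vector replicate 1 (narrow arrays) and 3.26 to 3.35 in the other 3 (wide arrays). The mean log2 signal of the poly-A control transcripts was 5.97 for plasmid replicate 1, 5.96 for vector replicate 1 and 5.57 to 5.71 for the remaining arrays. The 3' minus 5' difference of the transferrin receptor probe sets, a sign of RNA quality, was 1.55 for plasmid replicate 1, 1.34 for vector replicate 1 and 0.95 to 1.09 for the remaining arrays. The 18S ribosomal RNA signal was 5.83 for plasmid replicate 1, 5.57 for vector replicate 1 and 4.71 to 5.23 for the remaining arrays. Of 18 sympathoadrenal markers, 17 were measured. Of these, 11 had a mean above that of the median gene (5.85), among them Hand2, Phox2a, Dbh and Chgb. Below it lay Ddc (5.49), Gata3 (5.36) and the vesicular monoamine transporter genes Slc18a1 and Slc18a2 (4.95 and 3.93). The neurofilament genes Nefl and Nefm (3.48 and 3.54) were also below it, near the control transcript that is not added (3.37 to 3.50). The sympathoadrenal markers had a mean of 8.28 to 8.36 in miR-124a-2 plasmid arrays and 8.15 to 8.21 in empty vector arrays; 0 of the 17 passed in limma and 4 had an unadjusted p under 0.05, each higher with the plasmid, against 1988 of all 18194 genes, of which 934 were higher. Of the 9 fibroblast, 5 Schwann and glial, 6 endothelial and 5 immune markers measured, 0, 1, 0 and 1 were above the median gene. The mean log2 signal of the fibroblast markers was 4.24 to 4.45 in miR-124a-2 plasmid arrays and 4.27 to 4.41 in empty vector arrays. Schwann and glial markers had 5.04 to 5.35 with the plasmid and 5.09 to 5.27 with the vector, endothelial markers 4.05 to 4.27 with the plasmid and 4.01 to 4.14 with the vector, and immune markers 4.47 to 4.76 with the plasmid and 4.49 to 4.62 with the vector. None of these markers passed, and their part in the results was not tested. In bulk RNA, fewer cells that express a gene and less RNA per cell cannot be told apart.

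Among the receptors, the beta chain Itgb1 fell. It pairs with every alpha chain among the members and so is the common chain of most collagen, laminin and fibronectin receptors. Its log2 signal was 9.41, 9.42 and 9.64 in the 3 miR-124a-2 plasmid arrays, against 10.10, 10.50 and 10.47 in the empty vector arrays. The highest plasmid value lay below the lowest vector value, which came from replicate 1. This was 1.83-fold lower, or -0.87 ± 0.13 on the log2 scale (SE, limma adjusted p = 0.0270). The difference was -0.69 within the narrow arrays, which hold 1 vector array, and -0.85 within the wide arrays, which hold 1 plasmid array.

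Itgb1 has 6 probe sets, and all 6 had lower means with the plasmid. The probe set nearest in brightness gave -0.85, one of middle brightness gave -0.49, and the 3 dimmest, with means of 2.98 to 3.58, gave -0.22 to -0.02. The brighter the probe set, the larger was the difference. The mean of all 6 gave -0.43 and did not pass (adjusted p = 0.126).

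The other beta chains did not pass. Itgb5, a partner of the alpha-v chain in vitronectin receptors, had 7.59 ± 0.06 with the plasmid and 7.70 ± 0.07 with the vector (SD, n = 3 each). Its log2 fold change of -0.11 had a 95% interval of -0.32 to 0.10, and each of its 4 probe sets was below 0 (-0.33 to -0.11). Itgb4, the beta chain of hemidesmosomes, had -0.18 and Itgb3, another partner of the alpha-v chain, had 0.14, both from dim probe sets (means below that of the median gene). The difference between Itgb1 and these chains was not tested.

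None of the 8 integrin alpha chains passed in limma, and 1 had an unadjusted p under 0.05. That one was Itga6, the alpha chain of laminin receptors. Its log2 signal was 7.29, 7.68 and 8.05 with the plasmid, against 7.83, 8.27 and 8.40 with the vector. The groups overlapped, and replicate 1 was lowest in both. The estimate of -0.49 ± 0.21 (log2 fold change and SE) had an adjusted p of 0.427, with a 95% interval of -0.97 to -0.02, and its other probe set gave -0.48. With the replicate number as a block, Itga6 passed at the same estimate (limma adjusted p = 0.0457), a setting in which more of all genes passed too. That was the only 1 of 18 alternative settings in which Itga6 passed. The difference was -0.35 within the narrow arrays and -0.29 within the wide arrays.

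The remaining alpha chains had values between -0.27 and 0.26. Itga2, of a collagen receptor, had -0.27 and Itga9, which binds tenascin-C, had 0.26, both from dim probe sets. For Itga9, 2 of its 3 probe sets were lower. Itga3, another laminin receptor chain, had 0.19 with the 3 plasmid values (7.01 to 7.29) just above the highest vector value, although 1 of its 3 probe sets was lower. Itgav, which pairs with several beta chains, had 0.18. Itga1, of a collagen and laminin receptor, had 0.14. Itga7, a laminin receptor chain of muscle, had 0.08 from a dim probe set, and Itga5, of the fibronectin receptor, had 0.04. For all 8 the 95% interval lay within a 2-fold change of signal in either direction. For the 3 with dim probe sets this does not bound the change of the transcript.

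Lamc1, which encodes the gamma chain of most laminin trimers, had the largest fall of the 36 by its brightest probe set, though not by the mean of its probe sets. Its log2 signal was 6.74, 6.39 and 7.36 with the miR-124a-2 plasmid, against 8.21, 8.25 and 8.37 with the empty vector. The vector arrays lay close together and the plasmid arrays ranged widely, with replicate 3 nearest to the vector group. The plasmid group was 2.73-fold lower, at -1.45 ± 0.21 on the log2 scale (SE, adjusted p = 0.0233). Narrow arrays alone gave -1.65 and wide arrays alone -0.95. A second Lamc1 probe set of similar brightness gave -0.31, with 6.79, 7.03 and 7.05 for the plasmid and 6.88, 7.49 and 7.41 for the vector, so its groups overlapped. The mean of both probe sets gave -0.88 (adjusted p = 0.0513).

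**Figure D2:**
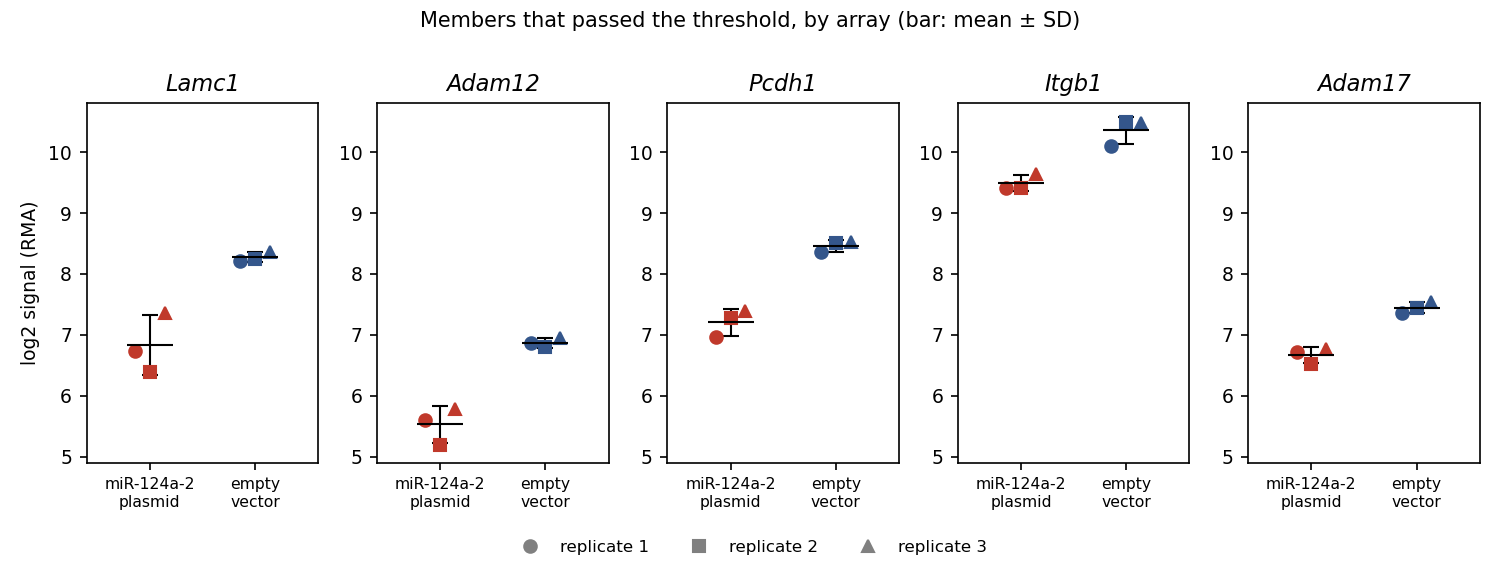
Log2 signal (vertical axis, the same range in each panel) of the 5 genes that passed, in 3 miR-124a-2 plasmid arrays (red) and 3 empty vector arrays (blue); symbols mark the replicate number, bars the mean and SD. In each panel every plasmid array lies below every vector array, and Lamc1 has the widest plasmid group (6.39 to 7.36).

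The alpha and beta laminin chains that assemble with Lamc1 did not pass. Lama5, of the laminins found in most adult basement membranes, had 6.37 ± 0.23 with the plasmid and 6.26 ± 0.09 with the vector (SD, n = 3 each), a log2 fold change of 0.11. Lama1, the alpha chain of the embryonic laminin, had 0.20. Lamb1 and Lamb2, the beta chains, had 0.08 and 0.07, and Lama4, of endothelial and nerve laminins, had -0.16. None of these 5 passed in limma, and none had an unadjusted p under 0.05. Lama1, Lama4, Lamb1 and Lamb2 had means of 3.78 to 5.03, below that of the median gene.

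Of the 11 other basement membrane and matrix genes none passed in limma, and none had an unadjusted p under 0.05. Their log2 fold changes were -0.30 to 0.12. Fn1, which encodes fibronectin, had 6.75, 6.69 and 6.78 with the plasmid and 6.84, 6.92 and 6.86 with the vector. Its groups did not overlap, but the difference was -0.14 (adjusted p = 0.691), with a 95% interval of -0.34 to 0.07. Agrn, which encodes the heparan sulfate proteoglycan agrin of synapses and basement membranes, had 0.12, also without overlap (8.34 to 8.45 with the plasmid and 8.25 to 8.27 with the vector). Hspg2, the gene of perlecan, had -0.04. Thbs1 (thrombospondin, which promotes synapse formation), Tnc (tenascin-C) and Nid2 (a nidogen) had 0.08, -0.05 and 0.01, each from a probe set with a mean of 3.59 to 3.99.

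Col4a1 and Col4a2 encode the chains of the common collagen IV trimer and are known to be transcribed in opposite directions from a shared promoter. Col4a1 had 6.16, 6.10 and 5.89 with the plasmid, against 6.33, 6.11 and 6.18 with the vector (log2 fold change -0.16, 95% interval -0.41 to 0.09). Col4a2 had 7.36, 7.26 and 7.40 with the plasmid, against 7.14, 7.33 and 7.19 with the vector (log2 fold change 0.12, 95% interval -0.10 to 0.35). Neither passed, and the estimates had opposite signs. A second Col4a1 probe set of similar brightness gave -0.54, with no plasmid value (5.51 to 5.96) above a vector value (6.20 to 6.41). The stretch that the promoter windows of both genes have in common is shown because both annotated starts lie in it, on opposite strands. It lies at chr8:11312777-11312854 (RefSeq, GRCm38.p6, plus strand), and the annotated starts that define the 2 windows are 21 bases apart. The Col4a1 start, on the minus strand, is at 11312826 and the Col4a2 start, on the plus strand, at 11312805. The annotated transcripts therefore overlap at their starts. Capitals mark the letters GGGCGG, the core of a GC box.
Col4a1 and Col4a2, shared stretch: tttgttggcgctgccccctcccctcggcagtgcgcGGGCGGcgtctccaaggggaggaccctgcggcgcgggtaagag

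Several matrix genes differed by replicate more than by plasmid. Nid1, which encodes nidogen, the link between laminin gamma chains and collagen IV, had 7.65, 8.72 and 9.05 in the plasmid arrays and 7.83, 9.12 and 9.37 in the vector arrays. The replicate 1 array was the lowest of both groups; its difference from the mean of the other arrays was -1.24 with the plasmid and -1.42 with the vector. The log2 fold change between groups was -0.30 ± 0.44 (SE, adjusted p = 0.902), and its 95% interval of -1.31 to 0.71 was the only one among the members that did not pass to reach past 2-fold. A second bright Nid1 probe set had the same order, with 6.63, 7.48 and 7.54 for the plasmid and 6.60, 7.69 and 7.88 for the vector.

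Sparc, which encodes a collagen-binding matricellular protein, had 8.44, 9.03 and 8.98 with the plasmid and 8.14, 9.17 and 8.99 with the vector. Col18a1, the source of endostatin, had 8.29, 8.77 and 8.91 with the plasmid and 8.39, 8.99 and 9.04 with the vector. Timp2, a metalloproteinase inhibitor, had 8.35, 8.75 and 8.82 with the plasmid and 8.28, 8.76 and 8.66 with the vector. In these genes, in Itga5 and in Itga6, replicate 1 was likewise lowest in both groups by the brightest probe set. That order held in 11 of the 36 members (30.6%) and in 14.9% of all genes, and the reverse order in 6 members (16.7%) and in 24.8% of all genes. Other probe sets did not always share the order. A dimmer Sparc probe set had replicate 1 highest in both groups. Its values were 6.14, 5.98 and 5.87 with the plasmid and 6.38, 5.93 and 6.19 with the vector. The remaining Sparc probe set had replicate 1 lowest in both groups, and the 6 Timp2 probe sets did not all have that order. Poly-A controls, the 3' minus 5' difference and 18S signal were higher in the same replicate 1 arrays, and their part in these values was not tested. These genes were chosen for this description after their values were seen.

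**Figure D3:**
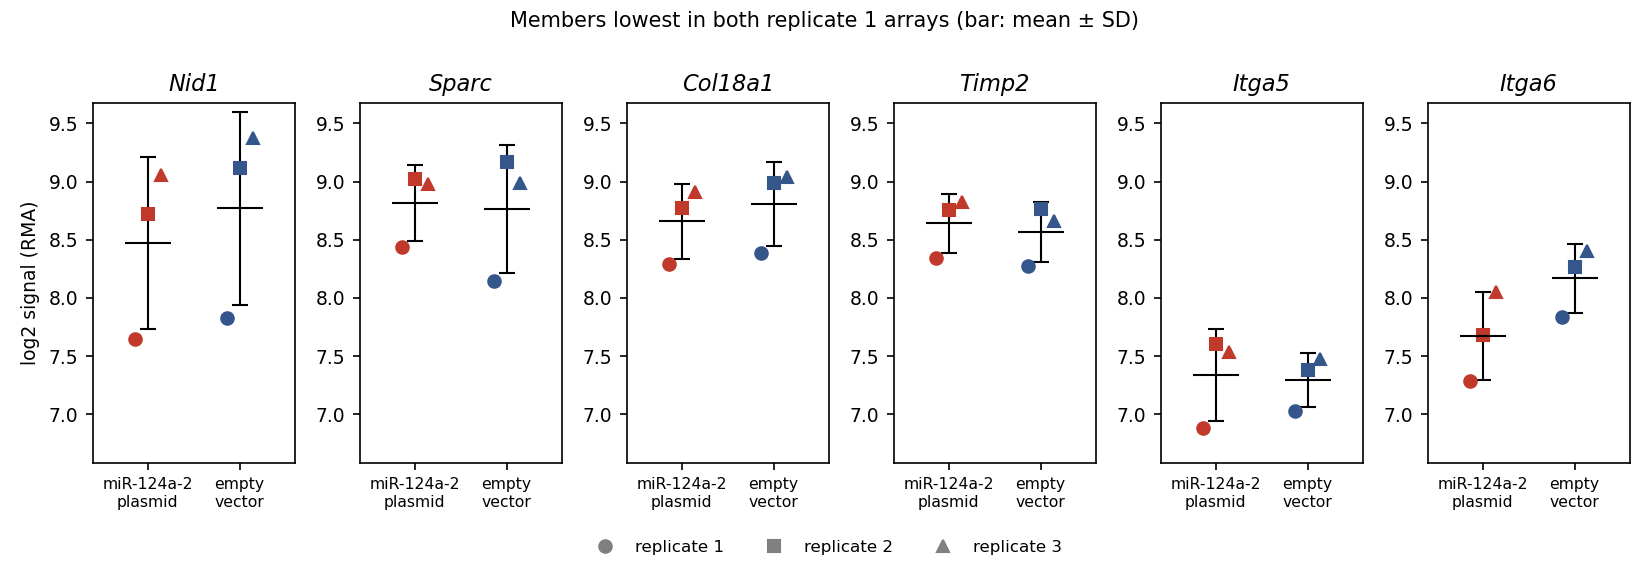
Log2 signal (vertical axis, the same range in each panel) of 6 genes in the miR-124a-2 plasmid (red) and empty vector arrays (blue); symbols mark the replicate number, bars the mean and SD. The circle of replicate 1 is the lowest point of both groups in every panel, and for Nid1 it differs from the mean of the other arrays by -1.24 with the plasmid and -1.42 with the vector.

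Of the 4 ADAM proteases, Adam12 and Adam17 fell and the other 2 did not pass. Adam12, a metalloprotease also known as meltrin alpha and linked to cell fusion and growth factor shedding, had 5.61, 5.20 and 5.78 with the plasmid, against 6.86, 6.79 and 6.95 with the vector. The groups did not overlap, and plasmid replicate 2 was lowest. The estimate was -1.34 ± 0.15 on the log2 scale, 2.53-fold lower (SE, adjusted p = 0.0107). Narrow arrays alone gave -1.46 and wide arrays alone -1.09. Its other, dimmer probe set gave -0.95, with 4.25, 4.68 and 4.75 for the plasmid and 4.88, 5.84 and 5.83 for the vector, also without overlap.

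Adam17, the sheddase that frees TNF and EGF receptor ligands from the membrane, had 6.72, 6.53 and 6.76 with the plasmid, against 7.36, 7.44 and 7.54 with the vector. Both groups were tight and stood apart. On the log2 scale the difference was -0.78 ± 0.11, 1.71-fold lower (SE, adjusted p = 0.0177), and the narrow arrays alone gave -0.74 and the wide arrays alone -0.73. All 3 Adam17 probe sets were lower (-0.91 to -0.61). Their mean gave -0.77 (adjusted p = 0.0568).

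Adam9 (meltrin gamma) pointed the other way. It had 9.69, 9.73 and 9.99 with the plasmid, against 9.28, 9.45 and 9.64 with the vector, and the groups did not overlap. Its log2 fold change of 0.35 ± 0.13 did not pass (SE, adjusted p = 0.332, unadjusted p = 0.0246). With the array set (narrow or wide) as a block, 6 members passed where 3.0% of all genes did. They were the 5 above, still lower, and Adam9, which was higher by 0.44 (adjusted p = 0.0441). Adam9 has 1 probe set, and it passed in only 1 of 18 alternative settings. Adam10, a sheddase of Notch and amyloid precursor protein and the closest relative of Adam17, had 8.26 ± 0.25 with the plasmid and 8.28 ± 0.08 with the vector (SD, n = 3 each), a log2 fold change of -0.02 with a 95% interval of -0.32 to 0.28.

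Neither TIMP passed in limma, and neither had an unadjusted p under 0.05. Timp3, the TIMP that inhibits ADAM17, had 4.13 ± 0.19 with the plasmid and 4.26 ± 0.17 with the vector (SD, n = 3 each), a log2 fold change of -0.13 from a dim probe set. Timp2 had 0.07, with a 95% interval of -0.31 to 0.45, and 3 of its 6 probe sets were lower.

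Pcdh1, a non-clustered protocadherin that mediates homophilic adhesion, had 6.96, 7.27 and 7.39 with the plasmid, against 8.35, 8.51 and 8.52 with the vector. The groups did not overlap, and replicate 1 was lowest in both. Pcdh1 was 2.38-fold lower, with -1.25 ± 0.13 on the log2 scale (SE, adjusted p = 0.00978). Both array sets gave a similar value, -1.24 for the narrow and -1.12 for the wide arrays. Pcdh1 has 1 probe set, so no second measurement stands beside it.

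**Figure D4:**
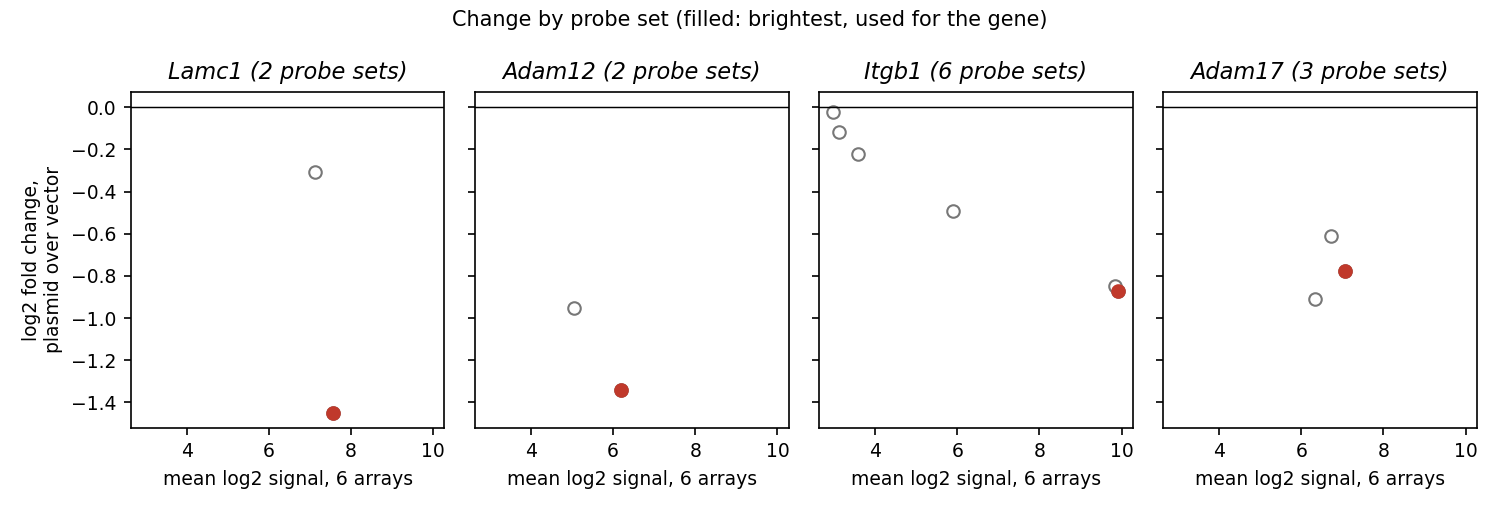
Log2 fold change (vertical axis, miR-124a-2 plasmid over empty vector) against the mean log2 signal over 6 arrays (horizontal axis) for every probe set of Lamc1, Adam12, Itgb1 and Adam17; the filled point is the brightest, which represents the gene. All 13 points lie below 0, and in Itgb1 they approach 0 (-0.02) at the dimmest probe set.

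The calls depended on single arrays. Without empty vector replicate 2 or replicate 3, limma called 0 of the 36 (5 and 6 at an unadjusted p under 0.05) and 0 of all genes (1285 and 1313 at an unadjusted p under 0.05), while without miR-124a-2 plasmid replicates 1 and 2 it called 1 (Pcdh1) and 2 (Adam12 and Pcdh1). All 5 were lower in each of 18 alternatives tested at the same threshold. The alternatives reuse the same arrays, in which the groups of all 5 did not overlap, so the kept direction is no independent support. Pcdh1 passed in 15, Adam12 in 14, Adam17 in 11, and Itgb1 and Lamc1 in 10 each. Over the 18 alternatives, the log2 fold change was -1.34 to -1.13 for Pcdh1 and -1.47 to -1.15 for Adam12. It was -0.91 to -0.71 for Adam17 and -1.71 to -0.88 for Lamc1, and the value nearest 0 for Itgb1 was -0.43. With replicates 2 and 3 only, which leaves out both arrays with high poly-A controls, none of the 5 passed (8 members at an unadjusted p under 0.05). Lamc1 lost its call without empty vector replicate 1 as well (adjusted p = 0.0680). Median centring of the arrays ended the call of Itgb1 (adjusted p = 0.0528) at a log2 fold change of -0.88. At a threshold of 0.01, Pcdh1 alone of the 36 passed.

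**Figure D5:**
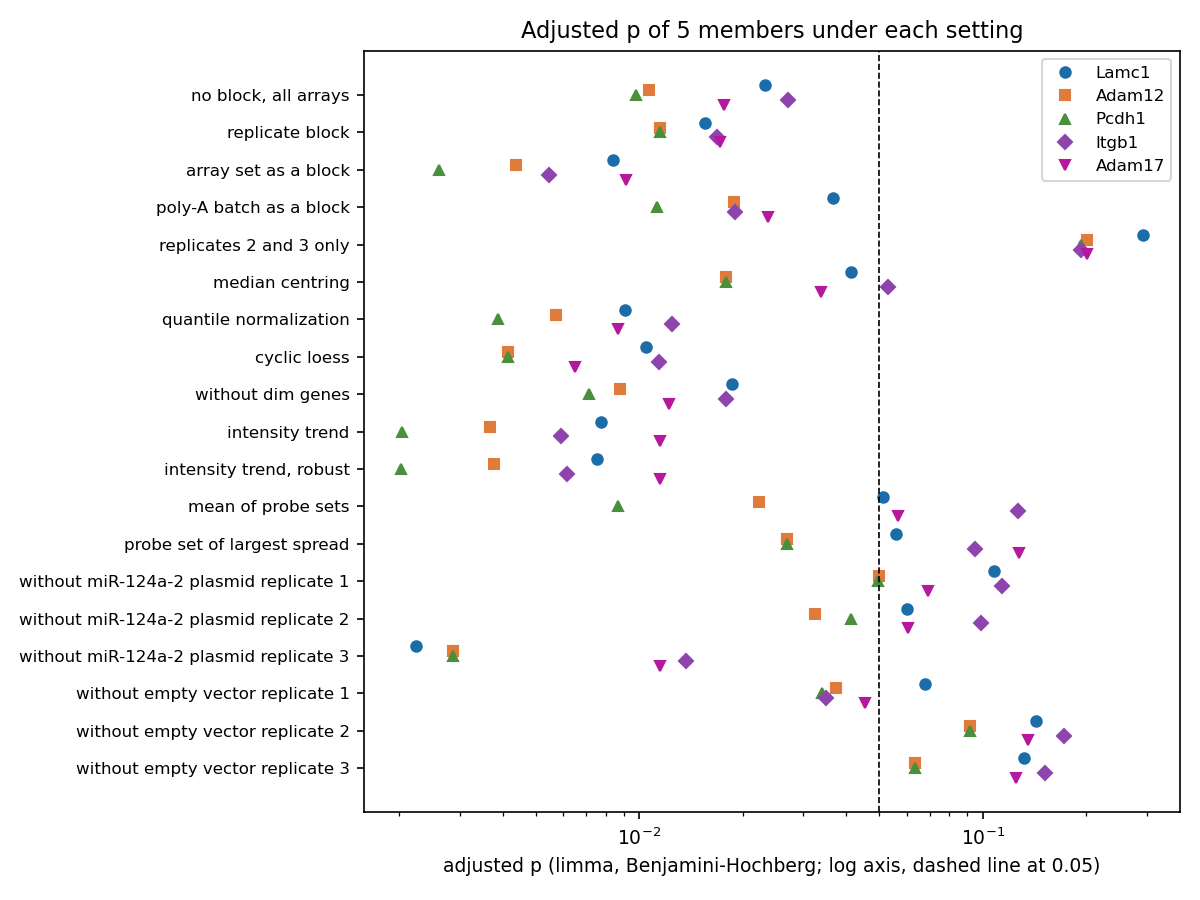
Adjusted p (limma, horizontal log axis, dashed line at 0.05) of Lamc1, Adam12, Pcdh1, Itgb1 and Adam17 under each setting (vertical axis). With the array set as a block all 5 lie left of the line, and with replicates 2 and 3 only all 5 lie right of it, between 0.193 and 0.292.

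Genes that work beside the members were read from 6 lists that hold none of them. Of 156 listed genes 142 were measured, 5 were lower, none was higher and 137 did not pass (limma). The median log2 fold change was 0.003. Of the 5, 4 are in the list of focal adhesion and integrin activating genes, where 4 of 32 measured genes passed, each lower, and 28 did not (median -0.07), while 0.698% of all genes were called lower. These lists too were chosen with earlier results of these arrays known. Tln1, the talin that binds integrin beta tails and activates them, fell by 1.20 (adjusted p = 0.0158), but only 1 of its 3 probe sets was lower, and their mean gave -0.30 (adjusted p = 0.231). Lims1, the adaptor PINCH of the integrin-linked kinase complex, had 7.41, 7.61 and 7.99 with the plasmid, against 8.58, 8.83 and 8.83 with the vector. It fell by 1.08 (adjusted p = 0.0219), with 3 of 5 probe sets lower and a mean over them of -0.61 (adjusted p = 0.190). Rsu1, which binds PINCH, fell by 0.65 (adjusted p = 0.0278), its second probe set had 0.22, and the mean of both gave -0.21 (adjusted p = 0.371). Lpp, a LIM protein of focal adhesions named here after its value was seen, fell by 0.56 (adjusted p = 0.0469), with 7 of 8 probe sets lower; its most variable probe set gave -1.20. Of the 18 alternatives, Tln1 passed in 12, Lims1 in 11, Rsu1 in 9 and Lpp in 9, and each was lower in all 18. Their groups did not overlap in these same arrays either, so the kept direction is no independent support. Without empty vector replicate 2 or 3, or without plasmid replicate 1 or 2, none of these 4 genes passed.

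Among 20 measured matrix receptors and tetraspanins outside the members, Cd151 fell, none rose and 19 did not pass (median -0.01). Cd151 encodes a tetraspanin that binds laminin receptors of the Itgb1 class. Its log2 signal was 9.88, 9.79 and 9.90 with the plasmid, against 10.81, 10.78 and 10.64 with the vector. The groups stood well apart, with an estimate of -0.89 ± 0.10 (log2 fold change and SE, adjusted p = 0.00978). Each of the 6 probe sets was below 0 (-0.93 to -0.17). Cd151 passed in 14 of the 18 alternatives, and not without plasmid replicate 1 or without vector replicate 2 or 3.

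None of the 16 other integrin and laminin chains passed in limma (0 at an unadjusted p under 0.05; largest value -0.28 for Itga8), and 14 of them were dimmer than the median gene. None of 40 other matrix proteins passed (1 at an unadjusted p under 0.05), with 0.54 for the brain proteoglycan gene Ncan (adjusted p = 0.0597). None of 23 other proteases and inhibitors passed (5 at an unadjusted p under 0.05, 3 higher and 2 lower, against 1988 of all 18194 genes), with 0.62 for Adam19, another ADAM protease (adjusted p = 0.0853). None of 11 other non-clustered protocadherins passed (0 at an unadjusted p under 0.05), with -0.20 for Pcdh11x, and all 11 were dimmer than the median gene.

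Promoter windows (250 bases before to 50 bases after the annotated start, RefSeq, GRCm38.p6) were matched for 23 of the 36 genes, in 27 windows. Of the 5 genes that fell, Itgb1 and Adam17 are shown as the 2 with a window. The letters GGGCGG, the core of a GC box, occur on either strand in 22 of the 27 windows and in 35.7% of all 32851 windows. CCAAT occurs in 8 of the 27 and in 37.4% of all windows, and TATAAA in 2 and in 13.6%. Itgb1 (chr8:128685404-128685703, plus strand) and Adam17 (chr12:21373583-21373882, minus strand) each hold 1 GGGCGG, in capitals below, and neither CCAAT nor TATAAA. A match describes the letters only.
Itgb1: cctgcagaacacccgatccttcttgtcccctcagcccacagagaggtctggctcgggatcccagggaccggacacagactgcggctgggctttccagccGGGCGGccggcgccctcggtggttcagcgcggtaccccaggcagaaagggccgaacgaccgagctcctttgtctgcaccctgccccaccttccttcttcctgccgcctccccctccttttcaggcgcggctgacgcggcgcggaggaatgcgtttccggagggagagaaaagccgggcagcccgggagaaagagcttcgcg
Adam17: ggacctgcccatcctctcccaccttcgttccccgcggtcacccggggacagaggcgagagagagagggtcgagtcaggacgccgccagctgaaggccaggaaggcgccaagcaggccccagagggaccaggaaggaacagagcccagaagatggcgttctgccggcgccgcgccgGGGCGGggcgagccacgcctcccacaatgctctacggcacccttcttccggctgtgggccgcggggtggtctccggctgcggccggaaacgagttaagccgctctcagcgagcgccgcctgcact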

How the data were processed

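Biotin-labelled cRNA made from 6 ug of total RNA was hybridised to 6 Affymetrix arrays, per the labels' protocols. The authors deposited RMA signals on the log2 scale for each probe set; RMA is named in the submitters' processing notes, and its version and settings are not given in the sources used here. The 6 columns hold 45101 probe sets and differ by at most 0.19 at any rank, so they were used as deposited. Arrays give no read depth, and their number limits the precision.

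Gene symbols come from a 2016 annotation, which gave 34958 probe sets a single gene, gave 932 more than 1 and did not list 9211; the 18194 genes with a single-gene probe set were each represented by the brightest. The group comparison used limma 3.58.1 under R 4.3.3 (lmFit and eBayes, two-sided, no block, Benjamini-Hochberg over all genes, threshold 0.05), and 95% intervals use its moderated standard errors. The fit was tested on simulated data with independent noise in each gene and none of the differences between arrays described above. It found 28% of simulated log2 changes of 0.5 and 80.2% of those of 1. The array set and the poly-A batch (24 control probe sets) were divided at the largest gap between arrays.

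The 36 members, the lists and the settings were chosen with earlier results of these data known. All members are named, with values on every array for those that pass and for those without overlap and a change of at least 0.4. Itga6, Fn1, Col4a1, Col4a2, Nid1, Sparc, Col18a1, Timp2 and Adam9 were given values on every array after these were seen. From each other list up to 3 passing genes with the smallest adjusted p are named, or the 1 with the largest change. Sequences were copied from RefSeq tables. Alternatives were blocks, left-out arrays, other scalings, removal of dim genes, a trend with intensity, other probe set rules and a threshold of 0.01.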

Additional observations from a re-analysis of the deposited data

How the results depend on the processing

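Of 36 members, 5 passed as reported. Between 4 and 6 passed with the replicate block, the array set or poly-A set as a block, and median centring. The same held with quantile normalization, cyclic loess, the filter on dim genes and either intensity trend. Leaving out 1 array each gave 0 to 5 members, 0 to 343 of all genes and 0 to 6 genes of the 6 other lists. With replicates 2 and 3 only, 0 members, 0 of all genes and 0 list genes passed in limma (8, 1824 and 14 at an unadjusted p under 0.05). The mean of probe sets gave 2 members and 2 list genes, the probe set of largest spread gave 2 members, 51 genes and 3 list genes, and a threshold of 0.01 gave 1 member, 17 genes and 1 list gene. The count over all genes was 165 as reported, 457 with the replicate block, 546 and 290 with the array set and the poly-A batch as a block, 99 with median centring, 311 with quantile normalization, 312 with cyclic loess, 308 with the filter on dim genes, and 270 and 266 with an intensity trend without and with robust estimation. List genes called were 5 as reported, 9, 8 and 8 with the replicate, array set and poly-A blocks, and 3 with median centring. The median of all genes shifted by -0.02 to 0.02. The 5 members, Itga6 and Adam9 kept their direction in each of 18 alternatives, which reuse the same arrays and give no independent support for it. The cause of these differences was not tested.

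Arrays with the same number deviated together for replicates 1 and 3 but not for replicate 2 (correlations over all genes of 0.54, 0.55 and -2.65e-05). Among arrays with different numbers, plasmid replicate 3 and vector replicate 2, both wide, gave 0.31. Plasmid replicate 2 and vector replicate 1, both narrow, gave 0.15, and the other such pairs were negative. No label ties the numbers to a shared batch, so the main comparison used no block. These correlations do not settle whether the number pairs the samples. With the replicate block the 5 members kept their calls, and Itga6 passed as well, at the same -0.49 (adjusted p = 0.0457; 0.0457 to 0.882 over its alternatives). Signal over background limits what can be read from the 13 members dimmer than the median gene. The 95% interval of each lay within a 2-fold change of signal, which near background does not bound the change of the transcript.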
